A study of Mus musculus with 9 samples.

Results

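The genes described here build and run the connecting cilium, the thin stalk through which every photoreceptor supplies its light-sensing outer segment. They are 41 genes of intraflagellar transport (IFT), of the BBSome, of the ciliary transition zone and of the photoreceptor cilium. The members were found by their symbols in the annotation of the array platform, and each gene was read at its brightest probe set over all arrays. Of the 41 genes 40 were measured, each by a lone probe set, among 24203 genes tested, and Arl6, the GTPase that recruits the BBSome to membranes, was not analysed here. Retinas had been dissected from mice at postnatal day 8 (P8), and their total RNA had been hybridized to an Affymetrix whole-transcript mouse array. There were 3 groups of 3 arrays each, 9 in all: Rb KO retinas, Rb/p107 DKO retinas (DKO below), which lack p107 as well as Rb, and wild-type retinas (WT). All groups were of strain C57Bl/6x129SvJ, and each array stands for a separate biological replicate by the series' own account, genotyped from a tail sample. The labels name no Cre driver, promoter or allele for the knockouts, so which retinal cells lost Rb or p107 is not known from them.

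The connecting cilium is the transition zone of a modified primary cilium. IFT trains carry proteins along the ciliary axoneme: IFT-B trains move outward with kinesin, and IFT-A with the dynein-2 motor brings material back. The BBSome is an adaptor that removes membrane proteins from the cilium, and the transition zone forms the gate at its base. Mutations in these genes cause ciliopathies, among them Bardet-Biedl, Joubert and Meckel syndromes and Leber congenital amaurosis, in which photoreceptors often degenerate.

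The values are log2 intensities after robust multi-array averaging. A reading counts as above background when 95% of that array's negative controls lie under it, a limit that fell between 7.94 and 8.5. Of the 40 members 27 were above background in all 9 arrays, 11 in some and 2, Rpgrip1l and Spata7, in none. Over all genes between 27.2% and 36.4% were above background in an array. The array number of 3 per group limits the precision, intensities of different genes are not compared with each other, and p-values measure the spread between these retinas. Rb1, the targeted gene, read 9.85, 10.02 and 9.86 in Rb KO, 9.74, 10.0 and 9.85 in DKO and 10.0, 10.19 and 10.46 in WT. Its log2 fold change was -0.31 in Rb KO (SE 0.117, limma adjusted p = 0.0791) and -0.36 in DKO (SE 0.117, limma adjusted p = 0.0422), and its Rb KO and DKO arrays overlapped each other. The DKO call of Rb1 ended in 7 of the 9 fits that left out an array, those without WT replicate 2 or 3, any Rb KO array or DKO replicate 1 or 3 (limma adjusted p = 0.0519 to 0.153), and Rb1 passed in Rb KO without WT replicate 1 (limma adjusted p = 0.0301). Whether its brightest probe set lies in the deleted part is not known, so these values do not check the labels. The gene of p107 (Rbl1) was not analysed here.

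Many ciliary genes carry X-boxes, the sites bound by RFX transcription factors, near their start. RefSeq promoter windows of build GRCm38.p6, 250 bases before to 50 bases after a start, were at hand for 37 of the 40 members. An X-box, written GTNNCC, a gap of 0 to 3 bases and GGNNAC, stood on either strand in the windows of 12 of these 37 genes (32.4%), against 4.38% of all 27025 genes with a window. The genes were Ift22, Ift57, Wdr19, Bbs1, Bbs4, Nphp4, Tmem231, Ahi1, Mks1, Tctn1, Tctn2 and Lca5. Shown here are the sites, in capitals, of the 6 genes that fell in both mutants, and both sites of Ift22, which rose in Rb KO. Each is given 5′ to 3′ on the strand of its gene. The starts of Lca5, Ahi1, Mks1 and Bbs1 used here lie downstream of the 5′ ends of their genes in RefSeq, that of Lca5 furthest.
Bbs1 (chr19:4906605-4906634, minus strand): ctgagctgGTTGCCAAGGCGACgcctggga
Bbs4 (chr9:59353464-59353493, minus strand): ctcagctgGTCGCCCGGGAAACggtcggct
Lca5 (chr9:83441137-83441166, minus strand): gagtccaGTAACCAATGGGAACtgggggag
Ahi1 (chr10:20952560-20952589, plus strand): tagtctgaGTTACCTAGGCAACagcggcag
Mks1 (chr11:87853183-87853212, plus strand): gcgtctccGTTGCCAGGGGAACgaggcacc
Tctn2 (chr5:124598679-124598708, plus strand): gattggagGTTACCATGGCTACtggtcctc
Ift22, upstream site (chr5:136908079-136908108, plus strand): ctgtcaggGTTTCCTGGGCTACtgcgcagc
Ift22, downstream site (chr5:136908109-136908138, plus strand): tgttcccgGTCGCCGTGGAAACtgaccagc

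Ciliary genes were mostly lower in both mutants, and more of them passed in DKO. In Rb KO against WT 17 of the 40 members fell and 2 rose (limma adjusted p under 0.05), where 14.3% of all genes fell and 10.2% rose. The median log2 fold change of the members was -0.25, beside -0.05 over all genes. In DKO against WT 31 of the 40 fell and 1 rose, where 17.2% of all genes fell and 12.2% rose, and the median was -0.46, beside -0.06. Among the 7837 genes above background in at least 3 arrays the shares that fell were higher, 22.7% in Rb KO and 25.6% in DKO, and of the 35 members in that class 14 and 27 fell. All 17 genes that fell in Rb KO also fell in DKO: Ift81, Ift43, Ift122, Wdr35, Bbs1, Bbs2, Bbs4, Bbs9, Bbs10, Ttc8, Cc2d2a, Ahi1, Mks1, Tctn2, Spata7, Lca5 and Arl3. Both comparisons use the same WT arrays. WT replicates 1 and 2 separated positive from negative controls better than any mutant array did (area under the curve 0.9445 and 0.9537, against 0.9285 to 0.9353 in Rb KO, 0.9272 to 0.9357 in DKO and 0.9324 in WT replicate 3). With this separation as a covariate, the falls over all 24203 genes went from 3454 to 2221 in Rb KO and from 4151 to 2484 in DKO. Of the members 8 then fell in Rb KO and 22 in DKO. The calls lost were those of Ift43, Ift122, Wdr35, Bbs1, Bbs10, Ahi1, Mks1, Tctn2 and Spata7 in Rb KO (limma adjusted p = 0.0509 to 0.227) and those of Ift88, Ift172, Wdr35, Bbs2, Bbs10, Nphp4, Tmem67, Tmem231 and Ofd1 in DKO (limma adjusted p = 0.0501 to 0.239). Most shifts were small, and those of Bbs9, Ttc8, Rpgrip1 and Mak in DKO exceeded 1 on the log2 scale. The 3 arrays of a group lay wholly below those of WT for 21 members in Rb KO and 31 in DKO, where 21.5% and 26.5% of all genes did. The counts of rising members rested on a few arrays. In Rb KO there was 1 without WT replicate 1, WT replicate 3 or Rb KO replicate 3 and 4 without Rb KO replicate 1, and in DKO there was none without WT replicate 3 or any DKO array and 2 without WT replicate 2. Over all genes the 2463 rises in Rb KO were 1959 to 2296 in these fits, and the 2959 in DKO were 2201 to 3162.

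**Figure D1:**
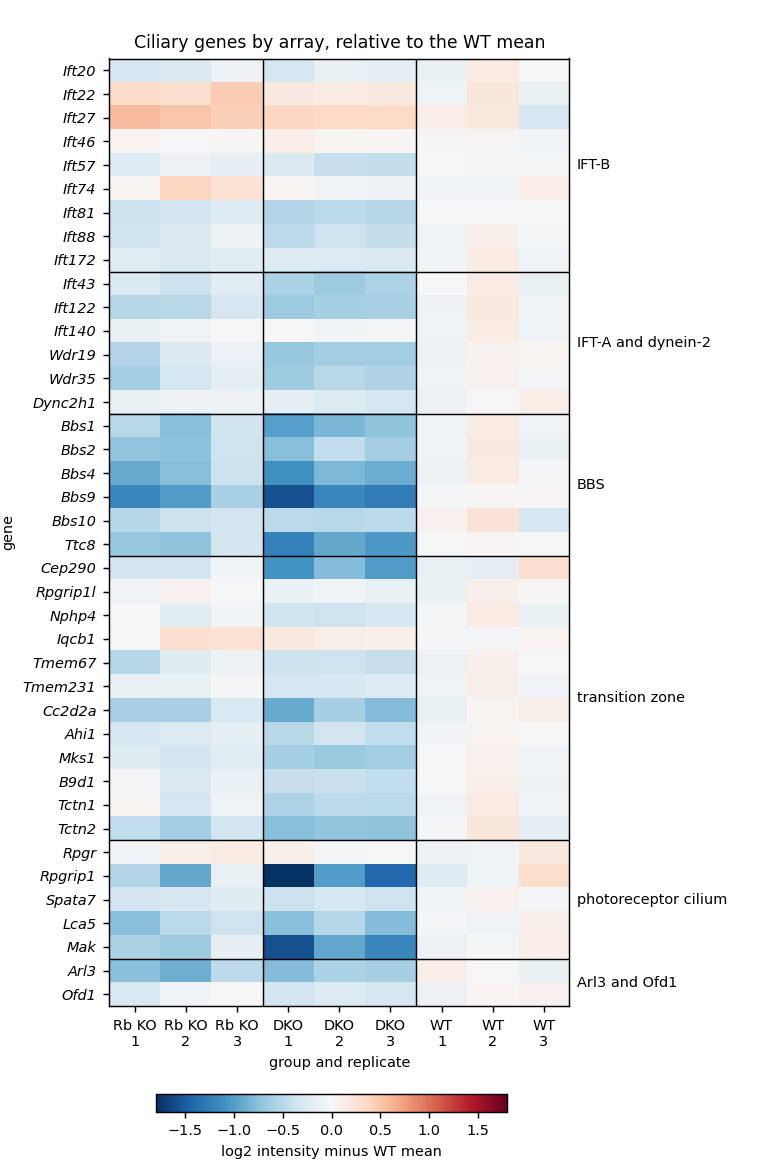
Heat map of the 40 measured ciliary genes (rows, by subset) in the 9 arrays (columns, Rb KO, DKO and WT replicates 1 to 3), coloured by log2 intensity minus the WT mean of the gene. Blue is lower and red higher than WT. The BBS block is blue in all 6 mutant arrays, DKO columns are darker than Rb KO columns in most rows of the transition zone, and Ift27 and Ift22 are red in the 6 mutant arrays.

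Markers of several retinal cell types also differed between the mutants and WT. The 9 measured rod markers all fell in both mutants, with median log2 fold changes of -1.23 in Rb KO and -1.46 in DKO, and their mean log2 level was 9.72 to 10.52 in Rb KO, 9.64 to 10.5 in DKO and 11.58 to 11.65 in WT. Nrl, the rod fate factor, read 9.04, 8.8 and 9.3 in Rb KO, 8.19, 8.57 and 8.48 in DKO and 9.92, 10.01 and 9.9 in WT. Crx, which switches on photoreceptor genes, read 11.74, 11.7 and 12.07 in Rb KO, 10.99, 11.4 and 11.33 in DKO and 12.25, 12.33 and 12.31 in WT. For both factors the WT arrays were highest and the DKO arrays lowest, without overlap. The fall of Crx in Rb KO (-0.46, SE 0.123, limma adjusted p = 0.0195) was lost when replicate 3 of WT or replicate 1 or 2 of Rb KO was left out (limma adjusted p = 0.0507 to 0.0827). Not all photoreceptor fate genes were lower: of the 4 on that list Crx and Thrb fell in Rb KO, while Otx2 rose by 0.42 (limma adjusted p = 0.00349) and Prdm1 by 1.1 (limma adjusted p = 1.28e-05). In DKO, Otx2 stood at -0.15 (limma adjusted p = 0.217) and Prdm1 at 0.22 (limma adjusted p = 0.0931, and 0.0412 without DKO replicate 3), and Crx and Thrb fell. Neither fall in Rb KO passed when replicate 3 of WT or replicate 1 or 2 of Rb KO was left out. The 6 cycling-cell markers all rose, and Mki67, the Ki-67 antigen, was at least 4.13 (log2) higher in Rb KO and at least 4.27 higher in DKO, since it was not above background in WT. In both mutants all 6 ganglion cell markers, all 6 pigment epithelium markers and 4 of 5 Muller glia markers fell. Cone markers fell in 5 of 6 in Rb KO and in 6 in DKO, bipolar markers in 7 of 7 in Rb KO and in 6 in DKO, and endothelial markers in 4 of 6 in Rb KO and in 5 in DKO. The mean log2 level of the pigment epithelium markers was 6.55 to 6.82 in Rb KO, 6.47 to 6.7 in DKO and 7.73 to 8.13 in WT, near or under background. That of the cone markers was under background in the mutants (7.59 to 8.21 in Rb KO and 7.58 to 8.31 in DKO) and 9.62 to 9.66 in WT. Amacrine and horizontal cell markers did not move together. Of 5 measured, 1 rose and 1 fell in each mutant, with medians of 0.05 in Rb KO and 0.06 in DKO. The Rb KO call of Tfap2a, on that list, ended without replicate 1 or 3 of WT or replicate 1 or 2 of Rb KO (limma adjusted p = 0.0954 to 0.133). Microglia markers rose in 5 of 7 in Rb KO and in 4 in DKO. In Rb KO 3 ganglion cell markers fell without Rb KO replicate 1 or 2, and 2 microglia markers rose without replicate 1 or 2 of Rb KO or replicate 1 or 3 of WT. In a whole retina fewer cells of a type and less RNA per cell cannot be told apart, and the part of these cell types in the ciliary differences was not tested.

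Arrays of a group differed together across the members. Rb KO replicate 3 was the highest of its group in 29 of 40 members, DKO replicate 1 the lowest of its group in 23 and WT replicate 2 the highest in 27. The mean of all members relative to the WT mean was -0.33, -0.3 and -0.13 in the Rb KO arrays, -0.53, -0.43 and -0.48 in the DKO arrays and -0.05, 0.07 and -0.01 in the WT arrays. The mean of the rod markers on the same scale was -1.68, -1.9 and -1.1 in Rb KO, -1.98, -1.12 and -1.34 in DKO and 0.03, -0.04 and 0.01 in WT. Rb KO replicate 3 thus had the smallest deficit of its group in both sets, as had DKO replicate 2. The same arrays had the smallest deficit of their groups in the cone, bipolar, ganglion cell and Muller glia markers. DKO replicate 2 also read lens genes 1.77 above the WT mean, against 0.46 and 0.33 in the other DKO arrays. The part of these array differences in the results was not tested. Without Rb KO replicate 3, 22 members fell in Rb KO, and without any other array between 12 and 16 did. Over all genes the 3454 falls in Rb KO became 2878 without Rb KO replicate 3 and 2229 to 4057 without another array.

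The BBSome was the subset with the deepest median shift. All 6 measured members fell in both mutants, with a median log2 fold change of -0.6 in Rb KO and -0.89 in DKO. Bbs9, a core subunit, read 10.04, 10.2 and 10.63 in Rb KO, 9.64, 10.04 and 9.95 in DKO and 11.17, 11.23 and 11.23 in WT. It was 1.89-fold lower in Rb KO (log2 -0.92, SE 0.146, limma adjusted p = 0.00108) and 2.51-fold lower in DKO (log2 -1.33, SE 0.146, limma adjusted p = 7.75e-05). All 6 mutant arrays lay below the lowest WT array, with DKO replicate 1 lowest. Ttc8, also named BBS8, a subunit whose loss causes blindness in mice, read 10.14, 10.1 and 10.49 in Rb KO, 9.6, 9.9 and 9.79 in DKO and 10.82, 10.84 and 10.81 in WT. Its log2 fold change was -0.58 in Rb KO (SE 0.112, limma adjusted p = 0.00344) and -1.06 in DKO (SE 0.112, limma adjusted p = 5.72e-05). The WT arrays lay close together, and the Rb KO and DKO arrays did not overlap.

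Bbs4, a subunit that also sits at centriolar satellites and whose X-box is shown above, read 9.44, 9.59 and 9.97 in Rb KO, 9.25, 9.54 and 9.46 in DKO and 10.25, 10.48 and 10.33 in WT. It fell by 0.68 in Rb KO (SE 0.133, limma adjusted p = 0.00374) and by 0.93 in DKO (SE 0.133, limma adjusted p = 0.000418) on the log2 scale. Mutant arrays were all below WT, and the mutants overlapped each other. Bbs1, the subunit most often mutated in Bardet-Biedl syndrome in people, read 9.84, 9.57 and 9.98 in Rb KO, 9.35, 9.52 and 9.61 in DKO and 10.26, 10.47 and 10.28 in WT. It fell by 0.54 in Rb KO (SE 0.113, limma adjusted p = 0.00559) and by 0.84 in DKO (SE 0.113, limma adjusted p = 0.000287). No mutant array reached the WT range. Bbs2, another core subunit, read 9.37, 9.35 and 9.71 in Rb KO, 9.32, 9.64 and 9.48 in DKO and 10.04, 10.25 and 9.97 in WT. It fell by 0.61 in both mutants (SE 0.122, limma adjusted p = 0.00428 in Rb KO and 0.00354 in DKO). The ranges of the mutants overlapped almost fully, both under WT. Bbs10, a chaperonin-like factor that helps the BBSome assemble, read 7.87, 7.99 and 8.05 in Rb KO, 7.91, 7.88 and 7.9 in DKO and 8.45, 8.61 and 8.07 in WT, above background in WT replicates 1 and 2 only. It passed in both mutants (limma adjusted p = 0.0304 in Rb KO and 0.0116 in DKO) with no measured size, and in Rb KO the call was lost when replicate 1 or 2 of either WT or Rb KO was left out (limma adjusted p = 0.0709 to 0.105).

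**Figure D2:**
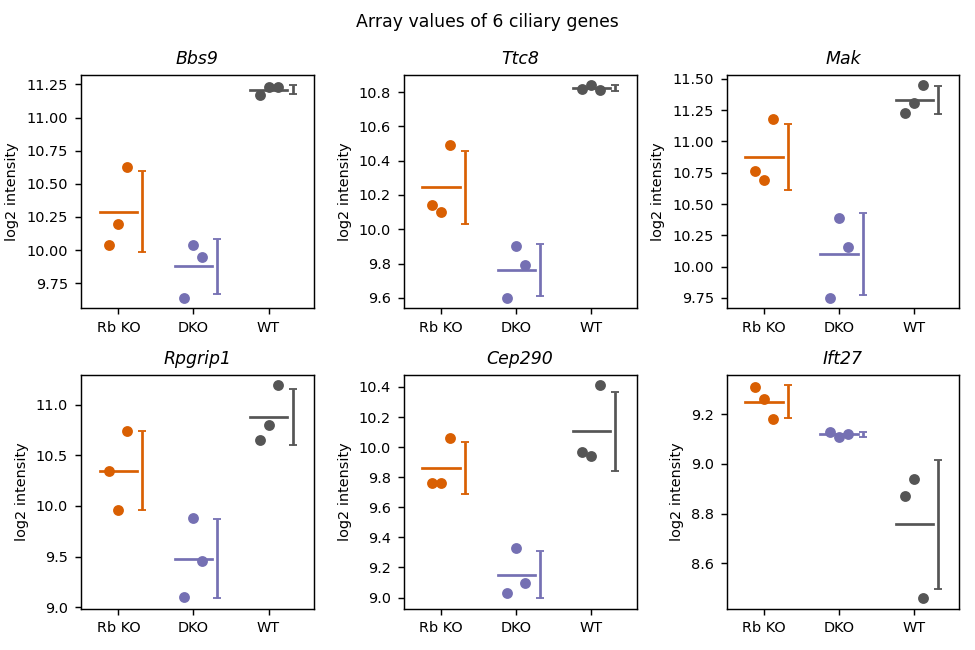
Log2 intensity (y axis) of Bbs9, Ttc8, Mak, Rpgrip1, Cep290 and Ift27 in Rb KO, DKO and WT retinas. Points are arrays (3 per group, replicates 1 to 3 left to right), horizontal lines group means and vertical bars SD; axes differ between genes and do not start at 0. DKO arrays lie below every WT array in all panels except Ift27, where the order is turned and the mutants lie above WT.

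Among the IFT-A genes and dynein-2, which carry material back to the ciliary base, 3 of 6 fell in Rb KO and 5 of 6 in DKO, with medians of -0.29 in Rb KO and -0.57 in DKO. Without replicate 1 or 2 of WT or of Rb KO, 1 fell in Rb KO. Ift122, a core IFT-A subunit, read 8.73, 8.75 and 8.94 in Rb KO, 8.59, 8.64 and 8.66 in DKO and 9.15, 9.42 and 9.16 in WT. Its log2 fold change was -0.44 in Rb KO (SE 0.0913, limma adjusted p = 0.00555) and -0.61 in DKO (SE 0.0913, limma adjusted p = 0.000546). The DKO arrays were all below the Rb KO arrays, and these below WT. Ift43, a small peripheral IFT-A subunit, read 9.92, 9.79 and 10.0 in Rb KO, 9.61, 9.54 and 9.63 in DKO and 10.19, 10.31 and 10.05 in WT. It fell by 0.29 in Rb KO (SE 0.0866, limma adjusted p = 0.0348) and by 0.59 in DKO (SE 0.0866, limma adjusted p = 0.000502). The 3 groups formed separate steps, with a narrow gap between Rb KO replicate 3 and WT replicate 3. Wdr35, also named IFT121, read 9.36, 9.65 and 9.81 in Rb KO, 9.33, 9.47 and 9.42 in DKO and 9.91, 10.04 and 9.95 in WT. It fell by 0.36 in Rb KO (SE 0.108, limma adjusted p = 0.0327) and by 0.56 in DKO (SE 0.108, limma adjusted p = 0.00279). Rb KO replicate 1 lay among the DKO arrays and the other two above them. The Rb KO calls were fragile: that of Ift43 was lost when any DKO array, or replicate 1 or 2 of WT or Rb KO, was left out (limma adjusted p = 0.0505 to 0.134), and that of Wdr35 when any WT array or replicate 1 or 2 of Rb KO was (limma adjusted p = 0.0571 to 0.0863).

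Wdr19, also named IFT144, had log2 fold changes of -0.3 in Rb KO (limma adjusted p = 0.0603, and 0.0187 without Rb KO replicate 3) and -0.65 in DKO (limma adjusted p = 0.000892), and its arrays read 8.91 to 8.97 in DKO against 9.49 to 9.66 in WT. Dync2h1, the heavy chain of dynein-2, was above background in no DKO array and in all WT arrays, and was at least 0.2 (log2) lower in DKO (limma adjusted p = 0.0339). That call ended without WT replicate 3 or any DKO array (limma adjusted p = 0.0576 to 0.132). Ift140 passed in neither mutant, with log2 fold changes of -0.07 and -0.02.

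IFT-B genes were the mixed subset, with 2 that rose and 1 that fell of 9 in Rb KO, and 1 that rose and 4 that fell in DKO. Ift81, which binds tubulin cargo together with Ift74, read 8.91, 8.96 and 9.07 in Rb KO, 8.78, 8.82 and 8.79 in DKO and 9.31, 9.29 and 9.31 in WT. Its log2 fold change was -0.32 in Rb KO (SE 0.0687, limma adjusted p = 0.00646) and -0.5 in DKO (SE 0.0687, limma adjusted p = 0.000316). Its 3 groups stood apart with no overlap and little spread in WT and DKO. Its partner Ift74 read 9.2, 9.54 and 9.41 in Rb KO, 9.19, 9.11 and 9.06 in DKO and 9.11, 9.08 and 9.27 in WT, and passed in neither mutant (log2 fold changes 0.23 and -0.04; in Rb KO limma adjusted p = 0.114, and 0.0332 without Rb KO replicate 1). The remaining falls in DKO were those of Ift57 (log2 -0.37, limma adjusted p = 0.00349), Ift88 (-0.41, limma adjusted p = 0.00422), known from a mouse with cystic kidneys and retinal degeneration, and Ift172 (-0.25, limma adjusted p = 0.0299). The call of Ift172 ended without WT replicate 2 or any DKO array (limma adjusted p = 0.0605 to 0.0942). In Rb KO these 3 had values of -0.16, -0.23 and -0.22, of which Ift88 passed without Rb KO replicate 3 (limma adjusted p = 0.0319) and Ift172 without WT replicate 3 (limma adjusted p = 0.0449). Ift20, which sorts cargo at the Golgi, and Ift46 did not pass in either mutant.

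The genes that rose were both small GTPase-like subunits of IFT-B. Ift27, which links the BBSome to IFT-B, read 9.31, 9.26 and 9.18 in Rb KO, 9.13, 9.11 and 9.12 in DKO and 8.87, 8.94 and 8.46 in WT. Its log2 fold change was 0.49 in Rb KO (SE 0.113, limma adjusted p = 0.0093) and 0.36 in DKO (SE 0.113, limma adjusted p = 0.0331). All mutant arrays exceeded WT, and WT replicate 3 lay far under the other two WT arrays. The DKO call ended without WT replicate 3 or any DKO array (limma adjusted p = 0.0602 to 0.091). Ift22 read 10.7, 10.67 and 10.82 in Rb KO, 10.53, 10.5 and 10.54 in DKO and 10.29, 10.57 and 10.25 in WT, and rose by 0.36 in Rb KO (SE 0.0916, limma adjusted p = 0.0156). WT replicate 2 overlapped the DKO arrays, and in DKO the value was 0.15 (limma adjusted p = 0.252, and 0.0246 without WT replicate 2). In Rb KO the call of Ift22 was lost without replicate 1 or 3 of WT or replicate 3 of Rb KO (limma adjusted p = 0.0515 to 0.0592). The promoter window of Ift27 holds a motif of E2F, the factor family held in check by RB1, as does that of Arl3, which fell. The motif was searched as TTTCCCGC, TTTGGCGC or TTTCGCGC on either strand, and stood in 2 of 37 members (5.41%) and in 2.12% of all genes. The sites are shown in capitals because these genes moved in opposite directions.
Ift27 (chr15:78174057-78174086, minus strand): ccaggagcctgTTTGGCGCgactcttggga
Arl3 (chr19:46573200-46573229, minus strand): tgggcgggcgcTTTGGCGCgcttgcgcact

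Transition zone genes fell in 4 of 12 in Rb KO and 10 of 12 in DKO, with medians of -0.2 in Rb KO and -0.43 in DKO. Without replicate 1 or 2 of WT or of Rb KO, or replicate 1 or 3 of DKO, 2 fell in Rb KO. Cc2d2a, a calcium-binding-domain protein of the ciliary gate, read 9.03, 9.04 and 9.34 in Rb KO, 8.72, 9.02 and 8.84 in DKO and 9.48, 9.65 and 9.73 in WT. Its log2 fold change was -0.48 in Rb KO (SE 0.112, limma adjusted p = 0.00994) and -0.76 in DKO (SE 0.112, limma adjusted p = 0.000542). No mutant array reached WT. Tctn2, a tectonic protein of the gate, read 8.33, 8.16 and 8.44 in Rb KO, 8.0, 8.06 and 8.05 in DKO and 8.73, 8.97 and 8.61 in WT. It passed in Rb KO (log2 -0.46, SE 0.103, limma adjusted p = 0.00808), where only replicate 3 was above background, and in DKO, where no array was above background, it was at least 0.39 (log2) lower (limma adjusted p = 0.000391). The 3 groups did not overlap. Ahi1, the Jouberin gene, read 9.99, 10.07 and 10.15 in Rb KO, 9.81, 9.97 and 9.87 in DKO and 10.26, 10.36 and 10.32 in WT. It fell by 0.25 in Rb KO (SE 0.0761, limma adjusted p = 0.0375) and by 0.44 in DKO (SE 0.0761, limma adjusted p = 0.00148). Its shifts were modest next to those of Cc2d2a, and the groups did not overlap. In Rb KO the call of Ahi1 was lost when any WT array, replicate 1 or 2 of Rb KO, or replicate 1 or 3 of DKO was left out (limma adjusted p = 0.0538 to 0.107).

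Mks1, a Meckel syndrome gene, read 7.91, 7.79 and 7.94 in Rb KO, 7.54, 7.47 and 7.51 in DKO and 8.14, 8.21 and 8.05 in WT. It passed in both mutants (limma adjusted p = 0.0297 in Rb KO and 0.00013 in DKO), yet only WT replicate 2 was above background, so no size was measured. In Rb KO the call was lost when replicate 1 or 2 of WT or of Rb KO, or replicate 1 or 3 of DKO, was left out (limma adjusted p = 0.05 to 0.116). Other genes of the same gate complexes were lower in DKO: Tmem67 (log2 -0.4, limma adjusted p = 0.0148), Tmem231 (-0.27, limma adjusted p = 0.0187), Nphp4 (at least 0.08 lower, limma adjusted p = 0.0117) and Tctn1 (at least 0.09 lower, limma adjusted p = 0.00296). B9d1 also passed, at readings near background (limma adjusted p = 0.0028). The call of Tmem231 ended without DKO replicate 1 or 2 (limma adjusted p = 0.0631 to 0.0741). In Rb KO these 5 genes had log2 fold changes between -0.28 and -0.08 and did not pass, Tmem67 passing without Rb KO replicate 3 (limma adjusted p = 0.0296). Iqcb1, a nephrocystin that binds Cep290, stood at 0.18 in Rb KO and 0.12 in DKO and passed in neither, though it passed in Rb KO without Rb KO replicate 1 (limma adjusted p = 0.0246). Rpgrip1l gave background readings in every array.

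Cep290, a scaffold of the connecting cilium and a frequent cause of Leber congenital amaurosis in people, passed against WT in DKO only. The comparison of the mutants with each other is given below. Cep290 read 9.76, 9.76 and 10.06 in Rb KO, 9.03, 9.33 and 9.1 in DKO and 9.97, 9.94 and 10.41 in WT. In DKO it was 1.94-fold lower than in WT (log2 -0.96, SE 0.138, limma adjusted p = 0.000442), and in Rb KO its log2 fold change was -0.25 (SE 0.138, limma adjusted p = 0.236). Rb KO and WT arrays overlapped, and all DKO arrays lay below both.

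The photoreceptor cilium subset comprises genes with a retina-restricted or retina-dominant role, and 2 of its 5 members fell in Rb KO and 4 in DKO (medians -0.45 in Rb KO and -0.68 in DKO). Without Rb KO replicate 3, 4 fell in Rb KO. Rpgrip1, which anchors RPGR in the connecting cilium, read 10.35, 9.96 and 10.74 in Rb KO, 9.1, 9.88 and 9.46 in DKO and 10.65, 10.8 and 11.19 in WT. It was 2.64-fold lower in DKO (log2 -1.4, SE 0.226, limma adjusted p = 0.000933), while in Rb KO its log2 fold change was -0.53 (SE 0.226, limma adjusted p = 0.118, and 0.047 without Rb KO replicate 3). Rb KO replicate 3 lay within the WT range, and all DKO arrays lay under the other groups. Mak, a kinase that limits cilium length in photoreceptors, read 10.76, 10.69 and 11.18 in Rb KO, 9.75, 10.39 and 10.16 in DKO and 11.23, 11.31 and 11.45 in WT. It was 2.35-fold lower in DKO (log2 -1.23, SE 0.165, limma adjusted p = 0.000284), and its log2 fold change in Rb KO was -0.45 (SE 0.165, limma adjusted p = 0.07, and 0.023 without Rb KO replicate 3 or 0.0339 without DKO replicate 1). DKO, Rb KO and WT arrays followed each other without overlap.

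Lca5, the gene of lebercilin, which joins IFT at the connecting cilium, read 9.29, 9.55 and 9.67 in Rb KO, 9.29, 9.53 and 9.26 in DKO and 10.02, 9.96 and 10.13 in WT. It fell by 0.53 in Rb KO (SE 0.11, limma adjusted p = 0.00514) and by 0.68 in DKO (SE 0.11, limma adjusted p = 0.000968). The mutants overlapped and both lay under WT. Spata7, which stabilises the distal connecting cilium, read 7.52, 7.57 and 7.65 in Rb KO, 7.48, 7.55 and 7.49 in DKO and 7.82, 7.94 and 7.84 in WT. These are background readings in every array, so its calls (limma adjusted p = 0.0127 in Rb KO and 0.00313 in DKO) have no measured size. Rpgr, the GTPase regulator mutated in X-linked retinitis pigmentosa, read 8.36, 8.52 and 8.56 in Rb KO, 8.51, 8.38 and 8.42 in DKO and 8.31, 8.35 and 8.6 in WT. Its log2 fold changes were 0.06 (SE 0.0927, limma adjusted p = 0.712) and 0.02 (SE 0.0927, limma adjusted p = 0.911), and the groups overlapped throughout.

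Rpgrip1 and Mak, whose falls in DKO were the deepest of the 40 members next to that of Bbs9 (log2 -1.33), carry a core motif of CRX and OTX2, TAATCC, in their promoter windows. The motif was searched on either strand and stood in 3 of the 37 members, with Bbs1 as the other one (8.11%), and in 8.14% of all genes, so the share was near that of all promoters. Both sites are shown, with the motif in capitals, which in Rpgrip1 lies on the opposite strand and reads GGATTA. They belong to windows of RefSeq starts that lie inside the genes, downstream of the 5′ ends of the genes in RefSeq. The window of Mak at the 5′ end of the gene holds no such motif.
Mak (chr13:41070666-41070695, minus strand): cccacaaaacagTAATCCcaccttgaacag
Rpgrip1 (chr14:52110863-52110892, plus strand): gctaaaaggcctGGATTAgtgtctcctcta

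Arl3, the GTPase that releases lipidated proteins into the cilium, read 10.17, 10.04 and 10.45 in Rb KO, 10.14, 10.35 and 10.32 in DKO and 11.04, 10.92 and 10.8 in WT. It was 1.62-fold lower in Rb KO (log2 -0.7, SE 0.112, limma adjusted p = 0.00116) and 1.57-fold lower in DKO (log2 -0.65, SE 0.112, limma adjusted p = 0.00138). The mutants overlapped, with all their arrays under WT. Ofd1, a protein of the distal centriole and of centriolar satellites, read 8.46, 8.69 and 8.74 in Rb KO, 8.39, 8.49 and 8.44 in DKO and 8.63, 8.77 and 8.81 in WT. It fell by 0.3 in DKO (SE 0.0898, limma adjusted p = 0.0288) and stood at -0.11 in Rb KO (SE 0.0898, limma adjusted p = 0.451). Its Rb KO arrays overlapped WT and its DKO arrays did not, and the DKO call ended without WT replicate 2 or 3 or any DKO array (limma adjusted p = 0.0511 to 0.106).

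**Figure D3:**
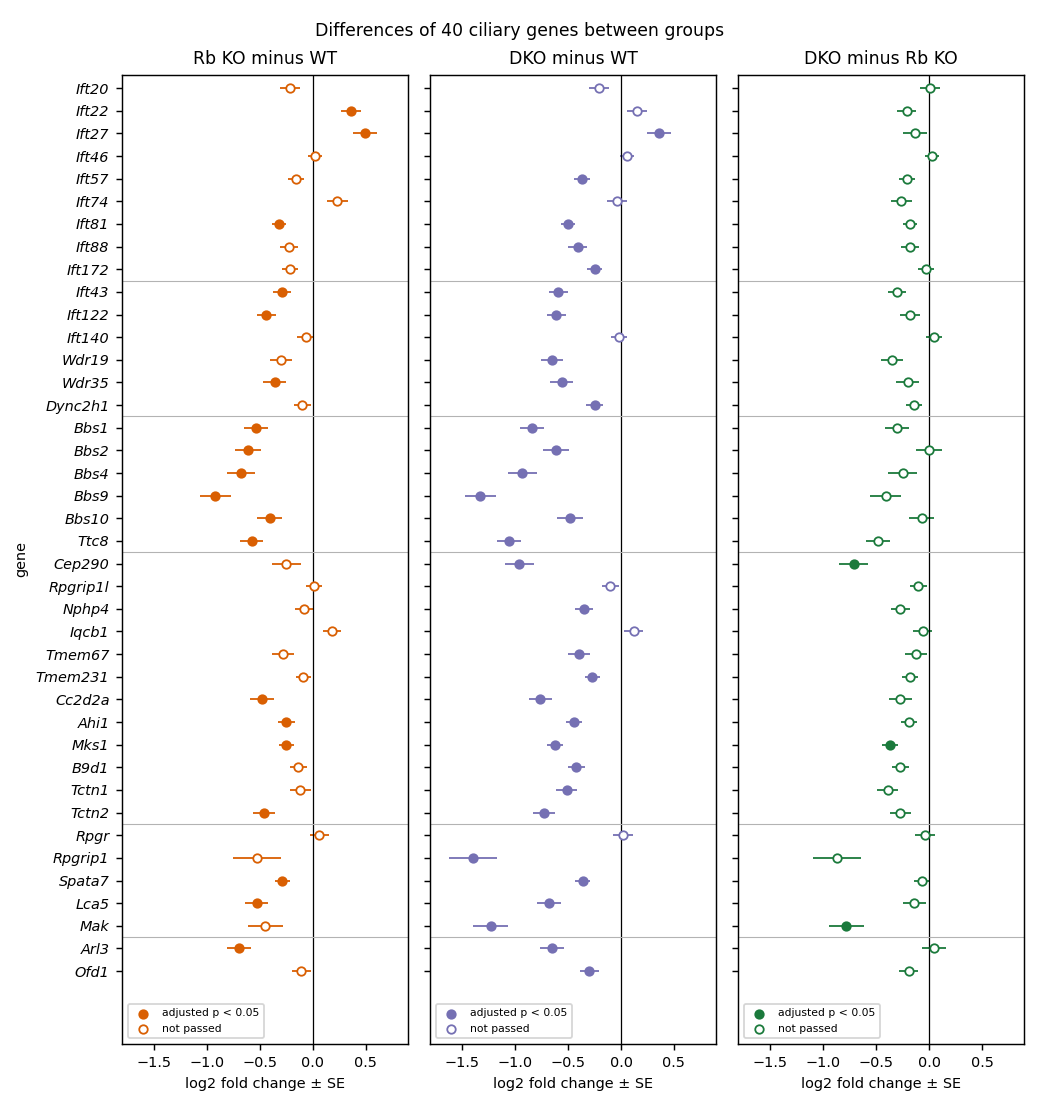
Log2 fold change (x axis) with SE for the 40 ciliary genes (y axis, by subset) in Rb KO minus WT, DKO minus WT and DKO minus Rb KO. Filled points passed at a limma adjusted p under 0.05. Bbs9, Ttc8, Rpgrip1 and Mak pass -1 in the DKO minus WT panel, and Cep290, Mks1 and Mak are the filled points between the mutants.

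The loss of p107 on top of Rb was read from DKO against Rb KO. In this comparison 35 of the 40 members had a value below 0, with a median of -0.19 beside -0.00 over all genes, and 22 members had all 3 DKO arrays below the Rb KO arrays, where 10.9% of all genes did. At a limma adjusted p under 0.05, 3 members fell, where 1.21% of all genes fell, and none rose, where 1.34% did. At an unadjusted p under 0.05 (limma) 20 were lower and 0 higher. The share of all genes at that looser threshold was not taken, and the shares given do not apply to it. Cep290 was 1.64-fold lower (log2 -0.71, SE 0.138, limma adjusted p = 0.0248) and Mak 1.71-fold lower (log2 -0.78, SE 0.165, limma adjusted p = 0.0348), and their DKO arrays all lay below their Rb KO arrays. Mks1 also passed (limma adjusted p = 0.029), at background readings in both mutants. Rpgrip1 had the largest value, -0.87, and did not pass (SE 0.226, limma adjusted p = 0.0808), and Ttc8 came close at -0.48 (SE 0.112, limma adjusted p = 0.0504). Bbs2, Arl3 and Ift20 stood at 0.0, 0.05 and 0.01. By subset the medians were -0.28 for BBS, -0.27 for the transition zone, -0.19 for IFT-A with dynein-2, -0.18 for IFT-B and -0.14 for the photoreceptor cilium.

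Each of the 3 calls between the mutants depended on several arrays. The call of Cep290 was lost when replicate 1 or 3 of either mutant was left out (limma adjusted p = 0.0656 to 0.105), that of Mks1 when any DKO array or replicate 1 or 3 of Rb KO was (0.0855 to 0.122) and that of Mak when replicate 3 of WT or replicate 1 or 3 of either mutant was (0.0547 to 0.123). No member passed without Rb KO replicate 3, DKO replicate 1 or DKO replicate 3. There was 1 that passed without Rb KO replicate 1, and 5 passed without WT replicate 2 or Rb KO replicate 2. Over all genes, 616 calls between the mutants became 299, 270, 252, 302, 857 and 499 in these fits, in the order named. Members that passed with an array left out, though not with all 9, were Rpgrip1 without Rb KO replicate 2 (0.0497) or DKO replicate 2 (0.0387), Tctn1 without Rb KO replicate 2 (0.03) or WT replicate 2 (0.042), Ttc8 without WT replicate 2 (0.0494) and Wdr19 without Rb KO replicate 1 (0.0405). In the same comparison Nrl stood at -0.63 (SE 0.13, limma adjusted p = 0.0304) and Crx at -0.6 (SE 0.123, limma adjusted p = 0.0297), and both calls were lost without replicate 3 of WT or replicate 1 or 3 of either mutant (0.0511 to 0.12 for Nrl and 0.0504 to 0.106 for Crx). Of the 4 measured photoreceptor fate genes, Crx among them, 3 fell, where 1.21% of all genes did, with a median of -0.58. Of these calls only that of Crx was lost with an array left out. The 9 rod markers had a median of -0.19 and Nrl was the one of them that passed. The 6 cycling-cell markers had a median of 0.26 and none passed. At an unadjusted p under 0.05 (limma) 3 were higher, again without a share of all genes at that threshold. The part of these factors and markers in the differences between the mutants was not tested.

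Both members with and members without an X-box were lower in the mutants. The 12 members with an X-box had a median of -0.25 in Rb KO and -0.56 in DKO, and the 25 with a window and no X-box had -0.23 and -0.41. Of the 12, 6 fell in Rb KO and 11 in DKO, and of the 25, 9 fell in Rb KO and 17 in DKO. The difference between these sets was not tested. RFX factors themselves, which bind X-boxes, were measured in 5 of 8 genes of the RFX and FOXJ1 list, and 3 of them rose in both mutants. Rfx2 passed in Rb KO (limma adjusted p = 0.0023) and in DKO (limma adjusted p = 0.000677), above background in 1 Rb KO, 2 DKO and 0 WT arrays. It was at least 0.23 (log2) higher in DKO, with no size given for Rb KO. Rfx3 rose by 0.33 in Rb KO (limma adjusted p = 0.0171, and 0.0674 to 0.0735 without WT replicate 1 or Rb KO replicate 2) and by 0.52 in DKO (limma adjusted p = 0.0011). Rfx7 passed too, at background readings in all 9 arrays.

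Other genes of the same machineries were read from wider lists. Of the other IFT and motor genes, 8 of 17 were measured, and 2 fell and 2 rose in Rb KO while 4 fell and 1 rose in DKO. Dync2li1, a light intermediate chain of dynein-2, read 8.64, 8.56 and 8.91 in Rb KO, 8.05, 8.17 and 8.13 in DKO and 9.24, 9.28 and 9.07 in WT. It fell by 0.49 in Rb KO (limma adjusted p = 0.00465), and in DKO, at background, it was at least 0.82 (log2) lower than in WT (limma adjusted p = 2.12e-05) and at least 0.33 lower than in Rb KO (limma adjusted p = 0.0113). Wdr60, a dynein-2 intermediate chain, read 8.34, 8.3 and 8.76 in Rb KO, 7.68, 7.96 and 7.82 in DKO and 9.0, 9.03 and 9.1 in WT. In DKO it was at least 0.67 (log2) lower than in WT (limma adjusted p = 3.78e-05), and it passed against Rb KO, where 1 array was above background (limma adjusted p = 0.021). Both dynein-2 chains formed 3 steps without overlap, WT highest and DKO lowest. Their calls between the mutants were lost without DKO replicate 1 or 3 (0.0501 to 0.0588 for Dync2li1 and 0.0843 to 0.0957 for Wdr60). Rabl2, a GTPase at the ciliary base, rose in Rb KO (0.36, limma adjusted p = 0.0157, and 0.057 to 0.0616 without replicate 1 of WT or replicate 1 or 3 of Rb KO) and stood at 0.08 in DKO. Tulp3 passed upwards in both mutants (limma adjusted p = 0.0146 in Rb KO and 0.0115 in DKO) and Hspb11 downwards in DKO (limma adjusted p = 0.0151), at readings near background. Without WT replicate 1, DKO replicate 1 or DKO replicate 2, 2 genes of this list fell in DKO. Of the other BBS genes 4 of 9 were measured and 2 fell in both mutants. Lztfl1, a regulator of BBSome entry, fell by 0.43 in Rb KO (limma adjusted p = 0.0125, and 0.0506 without Rb KO replicate 1) and by 0.74 in DKO (limma adjusted p = 0.000395), and Wdpcp passed at readings near background.

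Of the other transition zone genes 11 of 15 were measured, of which 3 fell in Rb KO and 4 in DKO. Tmem218 fell by 0.6 in Rb KO (limma adjusted p = 0.000582) and by 0.77 in DKO (limma adjusted p = 8.5e-05), and Tmem17 and Tmem138 passed at readings near background. Without Rb KO replicate 2, 1 gene of this list fell in Rb KO, and without DKO replicate 3, 2 fell in DKO. Genes that deliver lipidated or membrane proteins to the cilium were measured in 9 of 13, and 3 fell and 2 rose in Rb KO while 3 fell and 1 rose in DKO. Unc119, the chaperone that carries rod transducin and hands it over on ARL3, read 10.05, 9.75 and 10.36 in Rb KO, 9.55, 9.98 and 9.89 in DKO and 11.04, 11.1 and 10.89 in WT. It fell by 0.96 in Rb KO (limma adjusted p = 0.00108) and by 1.2 in DKO (limma adjusted p = 0.000196). Rab28, a GTPase of cone outer segment turnover, fell by 0.8 in Rb KO (limma adjusted p = 9.75e-05) and by 0.96 in DKO (limma adjusted p = 1.94e-05). Tulp1, a photoreceptor trafficking protein, fell by 0.77 in Rb KO (limma adjusted p = 0.00845) and by 1.19 in DKO (limma adjusted p = 0.00051). Rab8a, which drives vesicles to the cilium, rose by 0.27 in Rb KO (limma adjusted p = 0.0188) and by 0.24 in DKO (limma adjusted p = 0.0256), calls that were each lost in 4 of the 9 fits that left out an array, those without WT replicate 1 or 3, with Rb KO replicate 2 or 3 also for Rb KO (0.0531 to 0.0592) and DKO replicate 1 or 3 also for DKO (0.0698 to 0.103). Unc119b, a paralogue of Unc119, rose by 0.29 in Rb KO (limma adjusted p = 0.0235, and 0.051 to 0.0759 when replicate 1 or 3 of WT or replicate 1 of Rb KO was left out) and stood at 0.23 in DKO (limma adjusted p = 0.056, and 0.0295 to 0.0405 without WT replicate 2 or Rb KO replicate 1). Unc119 and Tulp1 overlapped between the mutants and not with WT.

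Of the axoneme and photoreceptor ciliopathy genes 13 of 17 were measured, with 5 that fell and 2 that rose in Rb KO and 8 that fell and 2 that rose in DKO. Without Rb KO replicate 2, 3 fell in Rb KO. Rp1l1, an axonemal protein of the outer segment, read 9.42, 8.87 and 9.75 in Rb KO, 8.49, 9.12 and 8.92 in DKO and 10.57, 10.68 and 10.47 in WT, with log2 fold changes of -1.23 in Rb KO (limma adjusted p = 0.00154) and -1.73 in DKO (limma adjusted p = 0.000133). Fam161a, a microtubule-binding protein of the connecting cilium, had -1.13 in Rb KO (limma adjusted p = 0.00352) and -1.52 in DKO (limma adjusted p = 0.000427), and Pcare, an actin regulator of disc formation, -0.97 in Rb KO (limma adjusted p = 0.00836) and -1.54 in DKO (limma adjusted p = 0.00041), where only replicate 2 was above background. Within each mutant these 3 genes were lowest in the same arrays, Rb KO replicate 2 and DKO replicate 1. These arrays also had the lowest means of their groups for the rod, cone, bipolar and ganglion cell markers. Poc1b, a centriolar protein, rose by 0.6 in Rb KO (limma adjusted p = 0.000968) and 0.44 in DKO (limma adjusted p = 0.00476), and Cilk1, a ciliary kinase related to Mak, rose by 0.46 in Rb KO (limma adjusted p = 0.00228) and 0.52 in DKO (limma adjusted p = 0.000809). Pcdh15, the Usher protocadherin, read 9.13, 9.0 and 9.14 in Rb KO, 8.27, 8.54 and 8.34 in DKO and 8.88, 8.96 and 9.18 in WT, and fell by 0.71 in DKO against Rb KO (SE 0.1, limma adjusted p = 0.00445).

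Centrioles are shared by the cilium and the mitotic spindle, and the genes of their duplication mostly rose. Of the 6 measured centriole duplication genes 5 rose in each mutant, where the median was 1.04 in Rb KO and 1.03 in DKO. Stil, needed for procentriole assembly, read 8.49, 9.0 and 8.46 in Rb KO, 9.16, 8.88 and 8.9 in DKO and 5.08, 5.26 and 5.08 in WT, at least 0.5 (log2) higher in Rb KO and at least 0.83 higher in DKO. Cep192, a centrosome scaffold, was at least 0.81 higher in Rb KO and 1.13 in DKO, and Cenpj, which sets centriole length, at least 0.39 in DKO, with no size given for Rb KO, where 1 array was above background (limma adjusted p = 1.48e-05). Their WT arrays were all at background. Of 8 genes that shorten or cap the cilium 6 rose and 1 fell in each mutant. Kif2c was at least 0.98 (log2) higher in Rb KO and at least 1.46 in DKO, and Plk1 rose by 2.01 in Rb KO (limma adjusted p = 1.45e-06) and 2.08 in DKO (limma adjusted p = 8.39e-07). Kif24 passed in both mutants at background readings (limma adjusted p = 9.17e-06 in Rb KO and 5.37e-06 in DKO). Ccp110, the centriole cap that is removed before a cilium grows, rose by 0.79 in Rb KO (limma adjusted p = 5.46e-05) and 0.81 in DKO (limma adjusted p = 3.52e-05). Kif2a fell by 0.27 in Rb KO (limma adjusted p = 0.0203) and 0.26 in DKO (limma adjusted p = 0.0211), calls lost without WT replicate 1 or 3, without Rb KO replicate 1 for Rb KO (0.0561 to 0.0681) and without any DKO array for DKO (0.0562 to 0.08). Kif2c and Plk1 are also mitotic genes, and they moved with the cycling-cell markers given above. Basal body genes were measured in 7 of 11, and in each mutant 2 rose, 1 fell and 4 did not pass. Their median was 0.09 in Rb KO and 0.1 in DKO. Cep83 of the distal appendages, above background in 1 WT array, rose by 0.89 in Rb KO (limma adjusted p = 0.000231) and 1.08 in DKO (limma adjusted p = 4.67e-05). Pcm1 of the satellites rose by 0.49 in Rb KO (limma adjusted p = 0.003) and 0.5 in DKO (limma adjusted p = 0.0022), and Cep19 fell by 0.49 in Rb KO (limma adjusted p = 0.0025) and 0.75 in DKO (limma adjusted p = 0.00013).

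**Figure D4:**
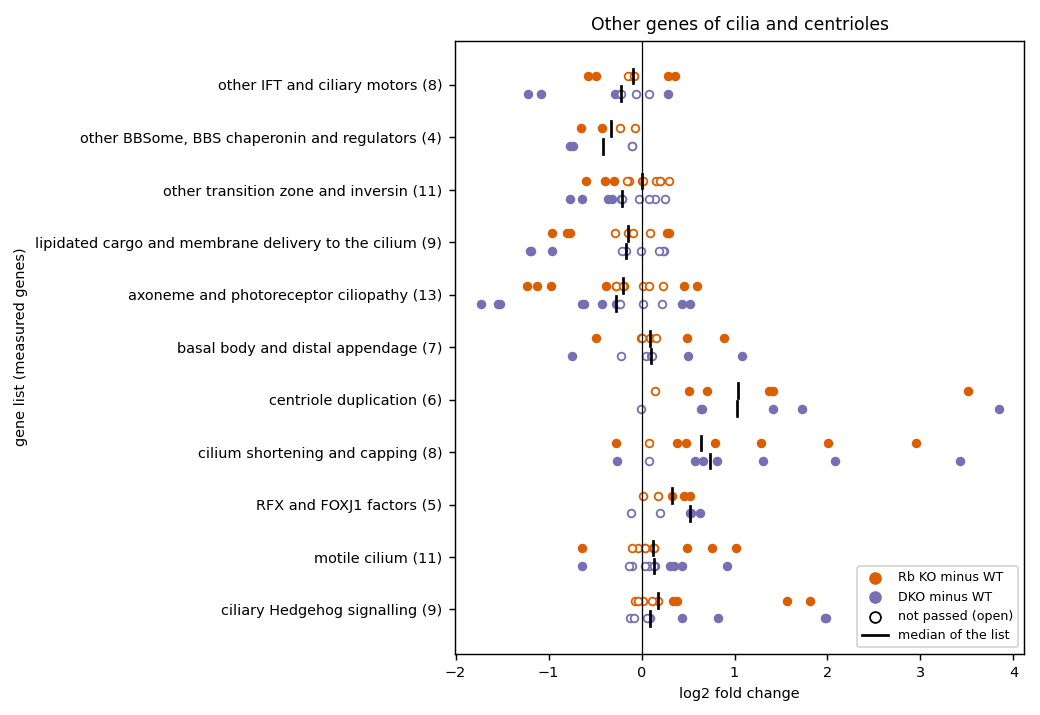
Log2 fold change (x axis) of single genes in 11 lists of other cilium and centriole genes (y axis, number of measured genes in parentheses), with Rb KO minus WT above and DKO minus WT below in each row. Filled points passed at a limma adjusted p under 0.05 and black bars are list medians, which lie above 1 for centriole duplication in both mutants and below 0 for the IFT, BBSome and axoneme lists.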

How the data were processed

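Total RNA of sufficient integrity (a score above 8) from 9 retinas was labelled with biotin and hybridized, per the labels' protocols. The authors deposited a table of log2 intensities, and the submitters' processing notes name RMA as the method; neither a software version nor an annotation build is given in the sources used here. Of its 59649 rows, 52917 were transcript clusters, 24646 of them with 1 symbol, 1795 with several (not used) and 26476 unnamed here. Symbols were updated through a reference table (GRCm38.p6), which held 24201 of 24203 genes. Chromosomes 1, 2 and 3 had 15, 19 and 10 tested genes.

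Group means of all 9 arrays were fitted in limma 3.58.1 (R 4.3.3; 6 residual and 4.70 prior degrees of freedom, no filter on dim probe sets), with Benjamini-Hochberg adjustment over all genes and calls under 0.05. SE is that of the log2 fold change. The fit was tested on simulated data. A bound ("at least") is the higher group's mean minus the lower group's mean of the larger of reading and background percentile. Members and lists were chosen with earlier results of these data known. Full array values are given for members that passed in both mutants or between them, for the photoreceptor cilium and for the 2 lowest p of each subset in Rb KO; of other lists, up to 3 rising and 3 falling genes of lowest p are named. In the lists of cilium shortening and of Hedgehog signalling a further rising gene is named, and in the latter also genes that did not pass. Pcdh15 was added to the named genes after its values were seen. Alternatives were another probe set rule, renewed quantile normalization, median centring, a filter on dim probe sets, moderation with trend and robust, fits of only 2 groups, a replicate block, all transcript clusters, control separation as a covariate and leaving out each array. Promoter sequences came from RefSeq (GRCm38.p6). Python 3.11.15 and matplotlib 3.10.9 drew the figures.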

Additional observations from a re-analysis of the deposited data

How the results depend on the processing

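No member changed direction with a call under any alternative. The 31 members that fell in DKO were 22 to 31 under the alternatives run. The 17 that fell in Rb KO were 12 to 19 under the alternatives that kept all arrays, except 8 with a covariate for how well positive and negative controls separate, and 12 to 22 with 1 array left out. With 1 array left out, the falls over all genes were 2229 to 4057 in Rb KO and 2704 to 4698 in DKO. The 2 that rose in Rb KO were 1 to 4 with 1 array left out. The 1 that rose in DKO was 0 in the fit of only 2 groups and with all transcript clusters tested, and 0 to 2 with 1 array left out. The 3 that fell in DKO against Rb KO were 6 with renewed quantile normalization, 6 with the filter on dim probe sets (35 members tested), 0 with all transcript clusters tested and 0 to 5 with 1 array left out. The causes were not tested. Over all genes, 616 calls between the mutants became 320 with all transcript clusters tested. The 292 falls over all genes became 375 with renewed quantile normalization and 315, of 7837 genes tested, with the filter on dim probe sets. Of the called members 9 of 19 in Rb KO, 21 of 32 in DKO and 0 of 3 between the mutants passed under every alternative in which they were tested. Deviations from the group means had correlations of -0.164 to 0.145 between same-numbered arrays (median -0.011, 9 pairs). Between differently numbered arrays they were -0.331 to 0.247 (median -0.012, 18 pairs). With 3 arrays per group this check cannot exclude that the numbers pair samples. With the replicate block 17 fell and 2 rose in Rb KO, 29 and 1 in DKO, and 2 fell between the mutants. Readings near background in Bbs10, Mks1, B9d1, Spata7 and Rpgrip1l limit what can be said of their size.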

Other observations

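Hedgehog signalling, which in vertebrates passes through the primary cilium, was measured in 9 of 10 listed genes. In each mutant 4 rose, where 10.2% of all genes rose in Rb KO and 12.2% in DKO. Smo, the receptor that enters the cilium when the pathway is on, read 10.12, 10.16 and 9.85 in Rb KO, 10.55, 10.44 and 10.41 in DKO and 8.28, 8.69 and 8.48 in WT, with log2 fold changes of 1.56 in Rb KO (SE 0.115, limma adjusted p = 5.86e-06) and 1.98 in DKO (SE 0.115, limma adjusted p = 6.52e-07). Gli3, a transcription factor of the pathway, was at least 0.66 (log2) higher in Rb KO (limma adjusted p = 0.00015) and at least 0.82 higher in DKO (limma adjusted p = 6.34e-05), with all WT arrays at background. Mutant and WT arrays did not overlap in either gene, while Evc and Hhip passed at background readings. Without Rb KO replicate 2 both lost their Rb KO call, and 2 genes rose. Other genes of the pathway did not rise. Ptch1 stood at -0.07 in Rb KO (limma adjusted p = 0.599) and -0.12 in DKO (limma adjusted p = 0.283). Sufu stood at -0.04 in Rb KO and -0.08 in DKO and did not pass, nor did Gli1, at background readings. The list median was 0.18 in Rb KO and 0.09 in DKO.

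Genes of motile cilia, which retinal cells are not known to build, gave background readings among those that passed. Of 11 measured, 3 rose and 1 fell in Rb KO and 4 rose and 1 fell in DKO, and 2 rose in DKO without DKO replicate 1. Rsph1 and Tekt1 passed upwards and Dnah9 downwards in both mutants. Mcidas, a switch of multiciliated cells, read 8.11, 7.97 and 7.95 in Rb KO, 7.25, 7.27 and 7.38 in DKO and 7.06, 6.89 and 7.03 in WT, and passed in Rb KO (limma adjusted p = 9.11e-06), in DKO (0.0138, and 0.0663 without DKO replicate 3) and between the mutants (0.000962), with no measured size.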
